A study of Capra hircus with 9 samples.

Results

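The genes described here encode the machinery of DNA replication and the G1/S switch that starts it. The 49 members are a list of gene symbols, kept where a gene reached 0.5 FPKM (fragments mapped to a gene, scaled by transcript length and by all mapped fragments) in 3 or more of the 9 files. All 49 met that rule, of 13116 genes that met it among 18383 named in the files. GINS3 stood closest to the limit, with 0.5 FPKM reached in the 3 MC libraries alone, followed by CCNE2 in 4 libraries and CDC6, POLE and POLE2 in 6 each. The 6 libraries of CDC6, POLE and POLE2 were those of HC and MC, and no LC library reached 0.5 FPKM. A gene that enters through the libraries where it is high is bound to differ, which bears on GINS3, CCNE2, CDC6, POLE and POLE2. Their place in the counts over LC, in the F test and by order of the means is affected, as is that of GINS3 in HC minus MC. The members were grouped by role into 11 helicase genes, 5 genes of origin licensing and firing, 9 polymerase and primase genes, 9 genes of clamp, loader, strand binding and joining, 5 genes of nucleotide supply, 4 genes that copy chromatin marks and structure, and 6 genes of G1/S control.

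DNA replication copies the genome once per cell cycle. In G1 the origin recognition complex, CDC6 and CDT1 load the MCM2 to MCM7 ring onto origins of replication. In S phase CDC45, the GINS complex and MCM10 turn that ring into the active helicase, and DNA polymerases, the sliding clamp PCNA and its loader RFC copy the strands from nucleotides that thymidylate synthase and ribonucleotide reductase supply. Most of these genes are transcribed by E2F factors once cyclin D and cyclin E kinases have released E2F from the RB proteins, and kinase inhibitors such as CDKN1A and CDKN1B oppose that step. In stratified epithelia such as the rumen lining, dividing cells lie in and next to the basal layer, so S phase transcripts come from a minority of the cells.

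The libraries came from rumen epithelium of goats (Capra hircus) aged 4 months, 3 each from animals on the HC, MC and LC diets. The series describes 3 kinds of concentrate diet and the labels name them by these letters only, which are not spelled out here. Breed, sex, time on diet and any other treatment are not known from the labels. Whether each library came from its own animal is not stated, so p-values measure the spread between these samples only, which may be technical. In bulk tissue, fewer cells of a type and less RNA per cell cannot be told apart.

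KRT5, the basal keratin of stratified epithelia, was abundant and held 2928 to 4803 FPKM in HC, 3759 to 4412 FPKM in MC and 2696 to 4089 FPKM in LC. Of 16 basal layer markers 13 were tested. In HC minus LC 0 rose and 3 fell, and in MC minus LC 1 rose and 3 fell. In HC minus MC 1 was higher and 3 lower. These were 23.1%, 30.8% and 30.8%, against 25.2%, 32.3% and 23% of all genes tested. Of 17 upper layer markers 11 were tested, and 45.5%, 54.5% and 45.5% of these passed, in both directions in every comparison. The libraries differed in how much muscle RNA they held. All 12 smooth muscle markers were listed in every file, and together they summed to 123.5 to 159.7 FPKM in HC, 1277 to 3949 FPKM in MC and 65.6 (LC3) to 2614 (LC1) FPKM in LC. Of 12 macrophage and dendritic cell markers 11 were listed, CD163 not, and they summed to 31.6 to 41.3 FPKM in HC, 19.8 to 28.8 FPKM in MC and 65.2 to 73.0 FPKM in LC. All 12 T and NK cell markers were listed in at least 1 file, and they summed to 13.6 to 18.3 FPKM in HC, 12.1 to 14.3 FPKM in MC and 20.02 to 21.05 FPKM in LC. Of 8 B and plasma cell markers PAX5 was not listed, JCHAIN alone was tested, and their sum stayed between 0.7715 and 3.97 FPKM. All 10 fibroblast markers were listed and summed to 166 to 333 FPKM in HC, 180 to 358 FPKM in MC and 267 to 640 FPKM in LC. Endothelial markers, 7 of 8 without CLDN5, summed to 8.05 to 19.4 FPKM in HC, 13.25 to 33.5 FPKM in MC and 17.4 to 51.6 FPKM in LC. The proliferation marker MKI67 held 1.12 to 2.21 FPKM in HC, 1.40 to 2.25 FPKM in MC and 0.632 to 1.13 FPKM in LC and passed in no comparison. Replicate 1 of each diet also stood apart in the steps of its low values, as described with the processing.

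Most of the replication genes were highest in MC, intermediate in HC and lowest in LC. The mean was highest in MC for 40 of 49 members (81.6%, against 37.8% of all 12678 genes tested), and 33 (67.3%) had their means in the order MC, HC, LC, against 17.2% of all genes. In the limma F test over the 3 diets 38 of 49 members passed at an adjusted p under 0.05, where 44% of all genes passed. GINS3, CCNE2, CDC6, POLE and POLE2, which met the 0.5 FPKM rule without any LC library, are among these 38. All of them but POLE are also among the 40 with the highest mean in MC. Their places follow in part from the rule and lend these counts no support. Without the 6 control genes, the 43 remaining members summed to 347.1, 371.9 and 374.6 FPKM in HC, 467.4, 464.9 and 451 FPKM in MC and 241.5, 280.4 and 283.5 FPKM in LC. The diets did not overlap in that sum, and every MC library stood above every HC library, which stood above every LC library. The heatmap by library shows the libraries gene by gene.

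**Figure D1:**
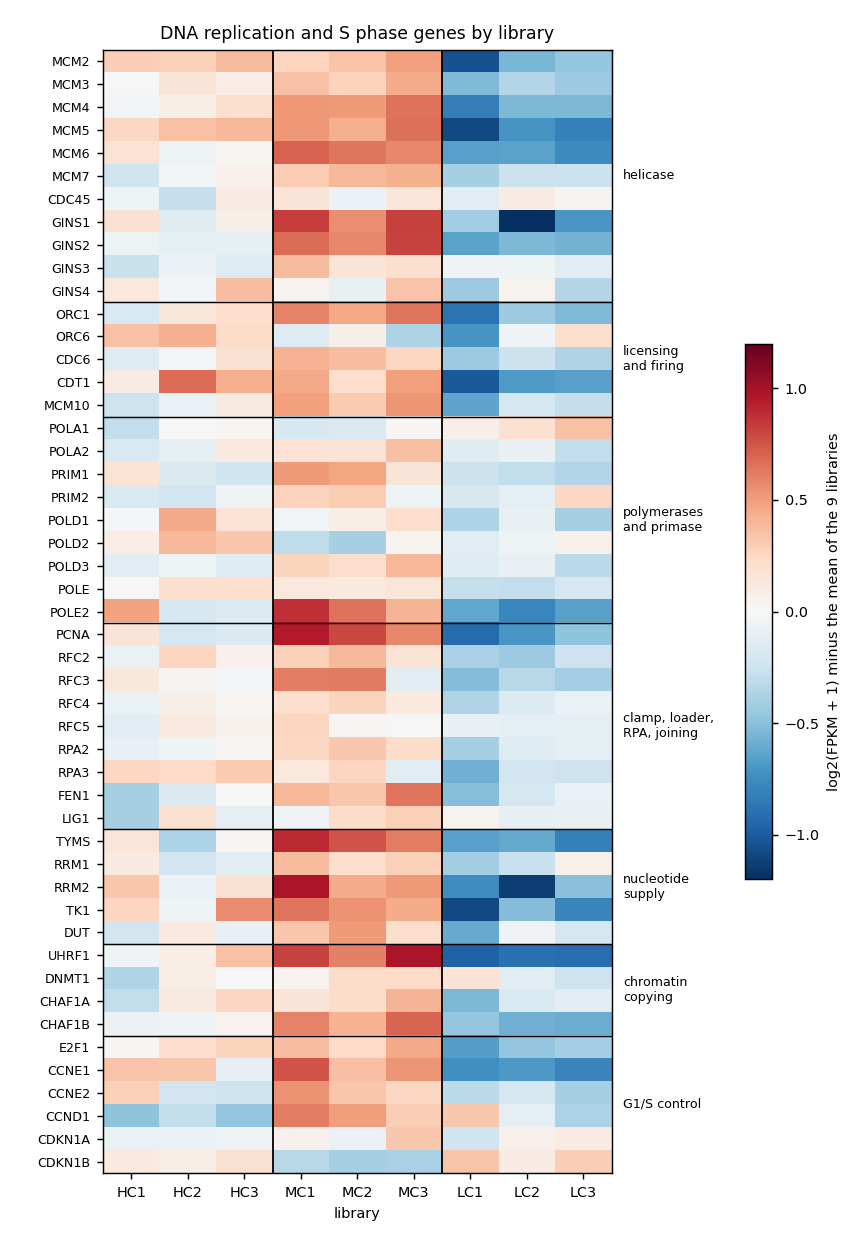
The 49 members by role (rows) in the 9 libraries (columns, HC, MC and LC with replicates 1 to 3), coloured by log2(FPKM + 1) minus the gene's mean over the libraries, with red above and blue below that mean. MC columns are red for most rows and LC columns blue, while CDC45, ORC6, POLA1, POLD2, DNMT1, LIG1, CDKN1A and CDKN1B are among the rows that leave that pattern.

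In HC minus LC 22 of 49 members rose in HC and 0 fell, where 25.2% of all genes passed the test, 7.38% higher and 17.8% lower. The median log2 change of the members was 0.39, and that of all genes was -0.12. In MC minus LC 36 members rose in MC and 1, CDKN1B, fell, where 32.3% of all genes passed, 15.3% higher and 17% lower. The members' median there was 0.68, against -0.02 over all genes. In HC minus MC 17 members were lower in HC and 2, POLD2 and CDKN1B, were higher, where 23% of all genes passed, 15.6% lower and 7.38% higher. The members' median was -0.31, and that of all genes -0.11. These comparisons share libraries, each diet entering a pair of them. Some counted genes met the 0.5 FPKM rule without any LC library. They are POLE and POLE2 in HC minus LC, and POLE, POLE2, CDC6 and CCNE2 in MC minus LC. GINS3, counted in HC minus MC, met the rule in MC libraries alone. The calls of these genes follow in part from the rule and lend the counts no support. Counting libraries alone, every HC library exceeded every LC library for 30 members (12.7% of all genes) and lay below it for 1 (28%), the background in either direction being 40.8%. Every MC library exceeded every LC library for 38 members (22.7%) and lay below it for 2 (23.6%), of 46.2% in either direction. Every HC library lay below every MC library for 26 members (31.2%) and above it for 3 (14.2%), of 45.4% in either direction. As deposited, the median gene was lower in HC than in either other diet, by the all-gene medians just given, and that shift underlies each HC value below. With median-of-ratios scaling the genes called over the whole table split into 1585 higher and 1419 lower in HC minus LC (936 and 2255 as deposited) and into 1532 higher and 1293 lower in HC minus MC (936 and 1981 as deposited). The members then split into 28 higher and 0 lower in HC minus LC, and into 2 higher and 10 lower in HC minus MC. The HC minus MC calls lost with this scaling were those of MCM7, GINS3, ORC1, MCM10, PRIM1, POLD3 and POLE2 (adjusted p = 0.0566 to 0.11).

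The 21 members that rose in both HC and MC over LC were MCM2, MCM3, MCM4, MCM5, MCM6, GINS1, GINS2, ORC1, CDT1, POLE, POLE2, PCNA, RFC2, RPA3, TYMS, RRM2, TK1, UHRF1, CHAF1B, E2F1 and CCNE1. For 10 of them, namely MCM4, MCM6, GINS1, GINS2, ORC1, POLE2, PCNA, TYMS, UHRF1 and CHAF1B, HC was also below MC in the test. A further 6 members, MCM7, MCM10, PRIM1, POLD3, FEN1 and CCND1, were higher in MC than in both other diets and did not pass in HC minus LC. Another 9, CDC6, POLA2, RFC3, RFC4, RPA2, RRM1, DUT, CHAF1A and CCNE2, passed in MC minus LC and in no other comparison. POLD1 passed in HC minus LC alone, and CDC45, GINS4, ORC6, POLA1, PRIM2, RFC5, LIG1, DNMT1 and CDKN1A passed in none.

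**Figure D2:**
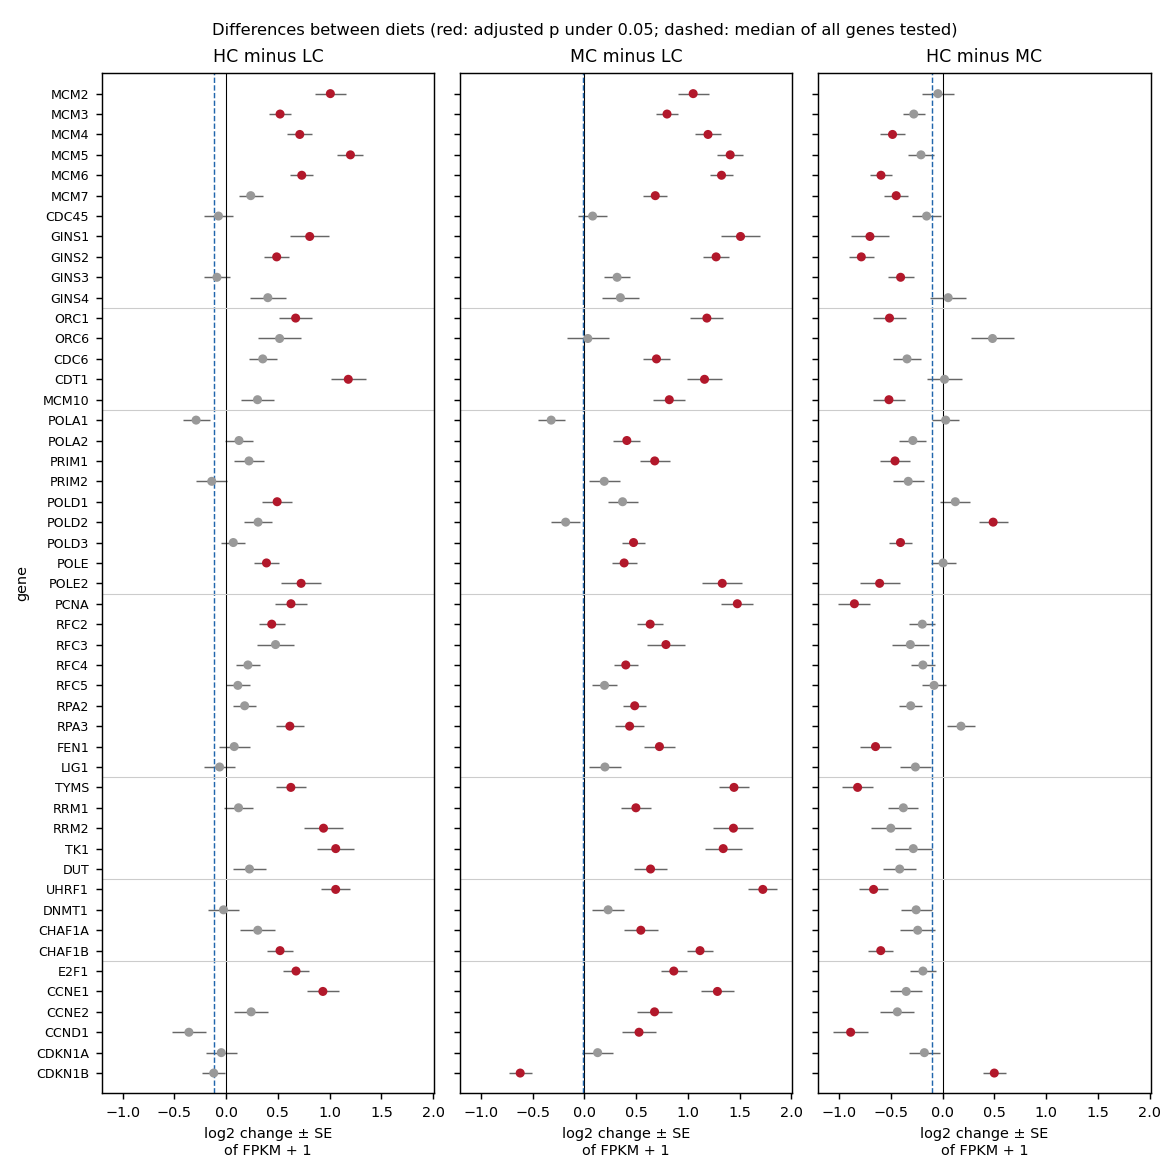
Log2 change of FPKM + 1 with its standard error for each of the 49 members, in HC minus LC (left), MC minus LC (middle) and HC minus MC (right); red points passed limma's test at an adjusted p under 0.05 and the dashed line is the median of all 12678 genes tested. In the left panel all 22 red points lie right of 0, in the middle panel 36 do and CDKN1B lies left, and in the right panel 17 lie left and POLD2 and CDKN1B lie right.

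Values below run from replicate 1 to replicate 3 of each diet, in FPKM as deposited, and log2 changes are of FPKM + 1 with their standard error, which understates the change of genes near 1 FPKM. Among the helicase genes, 7 of 11 rose in HC minus LC and 8 in MC minus LC, and 6 were lower in HC than in MC; none moved the other way. MCM2 to MCM7 are the subunits of the ring that unwinds DNA. MCM5 held 12.4, 13.4 and 13.8 FPKM in HC, 15.2, 14.2 and 16.8 FPKM in MC and 4.31, 5.89 and 5.42 FPKM in LC. The LC libraries lay far below the others, and HC lay under MC without passing the test. Its log2 change was 1.2 ± 0.13 at adjusted p = 7.48e-05 in HC minus LC, 1.41 ± 0.13 at adjusted p = 1.81e-05 in MC minus LC and -0.21 ± 0.13 at adjusted p = 0.245 in HC minus MC. Its partner MCM2 held 9.83, 9.805 and 10.5 FPKM in HC, 9.56, 10.2 and 11.5 FPKM in MC and 3.29, 5.07 and 5.404 FPKM in LC. HC and MC overlapped, and the log2 change was 1.01 ± 0.15 at adjusted p = 0.000821 in HC minus LC and 1.05 ± 0.15 at adjusted p = 0.000402 in MC minus LC.

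MCM6 and MCM4, which belong to the catalytic core of the ring, separated all diets. For MCM6 the libraries held 13.1, 10.9 and 11.7 FPKM in HC, 19.3, 18.4 and 17.5 FPKM in MC and 6.92, 6.99 and 6.34 FPKM in LC. For MCM4 they held 12.99, 14.1 and 15.3 FPKM in HC, 19.5, 19.4 and 21.5 FPKM in MC and 7.04, 8.87 and 8.89 FPKM in LC. No library of one diet reached into another for either gene. The log2 change of MCM6 was 0.73 ± 0.11 at adjusted p = 0.000812 in HC minus LC, 1.32 ± 0.11 at adjusted p = 1.1e-05 in MC minus LC and -0.59 ± 0.11 at adjusted p = 0.00353 in HC minus MC, the last lost with the mean of the smooth muscle markers as a covariate in the fit (adjusted p = 0.106). For MCM4 it was 0.71 ± 0.12 at adjusted p = 0.00185, 1.19 ± 0.12 at adjusted p = 4.1e-05 and -0.48 ± 0.12 at adjusted p = 0.016 in the same order, and the HC minus MC call was lost without MC3 (adjusted p = 0.0509) and with the smooth muscle covariate (adjusted p = 0.0541). MCM3 (means of 12.4 FPKM in HC, 15.2 FPKM in MC and 8.34 FPKM in LC) rose in HC and in MC over LC. MCM7 had the highest level of the ring on the FPKM scale, with means of 26.7 FPKM in HC, 36.7 FPKM in MC and 22.4 FPKM in LC. It was the ring gene with the smallest HC minus LC value (0.24 ± 0.12 at adjusted p = 0.162), which did not pass. MCM7 rose by 0.69 ± 0.12 at adjusted p = 0.00129 in MC minus LC and was lower in HC than in MC (-0.45 ± 0.12 at adjusted p = 0.0201). The last call was lost without HC1, MC2 or MC3 (adjusted p = 0.0562 to 0.0667) and with median-of-ratios scaling (adjusted p = 0.0572). Within the ring the MC minus LC value thus ran from 0.69 for MCM7 to 1.41 for MCM5 on the log2 scale.

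The GINS complex and CDC45 join the ring to make the working helicase, and GINS1 and GINS2 passed in every comparison while GINS4 and CDC45 passed in none. GINS1 held 4.84, 3.64 and 4.38 FPKM in HC, 8.16, 6.54 and 8.08 FPKM in MC and 2.85, 1.24 and 2.17 FPKM in LC. GINS2 held 1.61, 1.51 and 1.52 FPKM in HC, 3.33, 3.06 and 3.79 FPKM in MC and 0.742, 0.8701 and 0.835 FPKM in LC. Both separated all diets, with a ratio of the MC mean to the LC mean of 3.65 for GINS1 and 4.16 for GINS2. GINS2 changed by 0.49 ± 0.12 at adjusted p = 0.014 in HC minus LC, 1.27 ± 0.12 at adjusted p = 2.77e-05 in MC minus LC and -0.78 ± 0.12 at adjusted p = 0.00149 in HC minus MC. Its HC minus LC call was lost with replicates 2 and 3 only (adjusted p = 0.0743), with every library scaled to an equal summed FPKM and with the smooth muscle covariate (adjusted p = 0.0659 in each). GINS1 changed by 0.81 ± 0.19 at adjusted p = 0.00932, 1.51 ± 0.19 at adjusted p = 0.000149 and -0.70 ± 0.19 at adjusted p = 0.0203 in the same order. The first of these calls was lost with the mean of the basal layer markers as a covariate (adjusted p = 0.0903) and with equal summed FPKM (adjusted p = 0.054). The last was lost without HC2, HC3, MC1 or MC3, each left out in turn (adjusted p = 0.0566 to 0.0773). GINS3 averaged 0.296 FPKM in HC, 0.718 FPKM in MC and 0.378 FPKM in LC. It was lower in HC than in MC (log2 change -0.41 ± 0.13 at adjusted p = 0.0381), a call lost without LC2 or any single HC or MC library (adjusted p = 0.0538 to 0.152). GINS3 reached 0.5 FPKM in the MC libraries alone, so this call follows in part from the rule for members and is no support. GINS4 ranged from 0.597 to 1.80 FPKM and CDC45 from 0.395 to 0.883 FPKM over the 9 libraries.

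Origin licensing marks where replication may start. Of its 5 genes 2 rose in HC minus LC, 4 rose in MC minus LC, and 2 were lower in HC than in MC. CDT1, the loader that is degraded once S phase begins, held 3.23, 5.31 and 4.36 FPKM in HC, 4.43, 3.56 and 4.56 FPKM in MC and 0.978, 1.47 and 1.52 FPKM in LC. HC and MC overlapped and both lay above every LC library, with a log2 change of 1.18 ± 0.17 at adjusted p = 0.000602 in HC minus LC and 1.16 ± 0.17 at adjusted p = 0.000421 in MC minus LC. ORC1, the large subunit of the origin recognition complex, held 1.38, 1.97 and 2.12 FPKM in HC, 3.09, 2.72 and 3.21 FPKM in MC and 0.462, 1.002 and 0.867 FPKM in LC. The diets did not overlap. Its log2 change was 0.67 ± 0.16 at adjusted p = 0.0108 in HC minus LC, 1.18 ± 0.16 at adjusted p = 0.000263 in MC minus LC and -0.51 ± 0.16 at adjusted p = 0.0381 in HC minus MC. The HC minus LC call was lost without HC3 (adjusted p = 0.0517), and the HC minus MC call with any HC or MC library left out (adjusted p = 0.0586 to 0.115). The gene shares its locus with LOC106501970, so its reads may be divided between them.

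CDC6, the other loading factor, held 0.519, 0.661 and 0.913 FPKM in HC, 1.25, 1.18 and 1.01 FPKM in MC and 0.249, 0.409 and 0.316 FPKM in LC. It passed in MC minus LC only (0.70 ± 0.13 at adjusted p = 0.0023), although its HC libraries all lay above its LC libraries. MCM10, which activates the loaded helicase, held 0.939, 1.17 and 1.48 FPKM in HC, 2.23, 1.86 and 2.32 FPKM in MC and 0.481, 0.991 and 0.888 FPKM in LC. It rose in MC minus LC (0.82 ± 0.15 at adjusted p = 0.00215) and was lower in HC than in MC (-0.52 ± 0.15 at adjusted p = 0.0331). The last call was lost with 5 of 6 HC or MC libraries left out in turn (adjusted p = 0.0557 to 0.101). ORC6, the small origin subunit, held 7.17, 7.65 and 6.504 FPKM in HC, 4.79, 5.75 and 3.98 FPKM in MC and 2.95, 5.19 and 6.43 FPKM in LC. Its level was highest in HC, and MC and LC had nearly the same mean; it passed in no comparison.

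**Figure D3:**
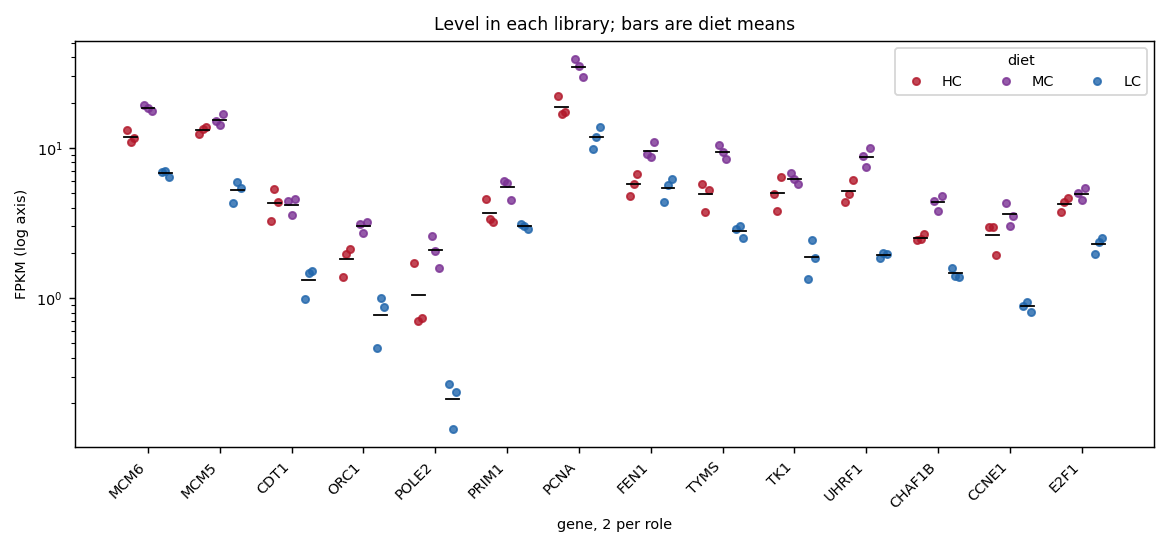
FPKM on a log axis of the first 2 members of each role by F test in the 9 libraries; points are libraries (HC, MC and LC from left to right within a gene) and black bars are diet means. LC points lie below all others for every gene shown except FEN1, where HC (4.80 to 6.68 FPKM) overlaps LC (4.37 to 6.22 FPKM), and PCNA reaches 38.9 FPKM in MC1.

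Among polymerases and primase 3 of 9 genes rose in HC minus LC, 5 rose in MC minus LC, and 3 were lower and 1 higher in HC minus MC. POLE2, the second subunit of the leading strand polymerase, had a ratio of the MC mean to the LC mean of 9.78, which rests on LC values under the 0.5 FPKM limit that its HC and MC libraries passed. It held 1.72, 0.699 and 0.734 FPKM in HC, 2.57, 2.06 and 1.59 FPKM in MC and 0.266, 0.135 and 0.236 FPKM in LC. HC1 stood with the MC libraries, and HC2 and HC3 lay between MC and LC. The log2 change was 0.72 ± 0.19 at adjusted p = 0.0182 in HC minus LC, 1.33 ± 0.19 at adjusted p = 0.000408 in MC minus LC and -0.61 ± 0.19 at adjusted p = 0.0403 in HC minus MC. The call in HC minus LC was lost without HC1 (adjusted p = 0.0536) and without LC2 (adjusted p = 0.0559), and its value was 0.357 with the basal covariate (adjusted p = 0.222). The call in HC minus MC was lost without HC2, HC3, MC1, MC2 or LC2 (adjusted p = 0.0535 to 0.149). The catalytic subunit POLE was low, at 0.634, 0.874 and 0.877 FPKM in HC, 0.782, 0.769 and 0.804 FPKM in MC and 0.35, 0.329 and 0.426 FPKM in LC. HC and MC both lay above LC (log2 change 0.39 ± 0.12 at adjusted p = 0.0358 and 0.38 ± 0.12 at adjusted p = 0.0303), and single libraries decided both calls. HC minus LC was lost without HC2, HC3, MC1, MC2 or any LC library (adjusted p = 0.0504 to 0.123). MC minus LC was lost without LC2 or any MC library (adjusted p = 0.0705 to 0.0857).

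Subunits of the lagging strand polymerase passed in different comparisons. POLD3, an accessory subunit, held 3.86, 4.16 and 3.85 FPKM in HC, 5.45, 5.22 and 6.07 FPKM in MC and 3.85, 4.05 and 3.31 FPKM in LC. MC alone stood above the others, with a log2 change of 0.47 ± 0.12 at adjusted p = 0.0087 in MC minus LC and -0.41 ± 0.12 at adjusted p = 0.0268 in HC minus MC. The HC minus MC call was lost with any HC or MC library left out (adjusted p = 0.0509 to 0.0916). POLD1, the catalytic subunit, held 6.29, 9.09 and 7.26 FPKM in HC, 6.18, 6.701 and 7.51 FPKM in MC and 4.68, 5.91 and 4.56 FPKM in LC. It passed in HC minus LC (0.49 ± 0.14 at adjusted p = 0.0295), a call lost without HC2, HC3, LC1 or LC3 (adjusted p = 0.0693 to 0.106). POLD2, the subunit that links POLD1 to POLD3, held 9.55, 11.9 and 11.3 FPKM in HC, 7.004, 6.497 and 9.15 FPKM in MC and 8.01, 8.51 and 9.34 FPKM in LC. It was the 1 polymerase gene that was higher in HC than in MC (0.49 ± 0.14 at adjusted p = 0.0269). That call was lost without HC2, HC3, MC1 or MC2 (adjusted p = 0.0916 to 0.11) and on a scale with equal summed FPKM (adjusted p = 0.122). The primase subunit PRIM1 held 4.53, 3.38 and 3.19 FPKM in HC, 6.03, 5.83 and 4.48 FPKM in MC and 3.12, 3.02 and 2.86 FPKM in LC. It rose in MC minus LC (0.68 ± 0.14 at adjusted p = 0.0041) and was lower in HC than in MC (-0.46 ± 0.14 at adjusted p = 0.0392; adjusted p = 0.0541 to 0.149 without HC2, HC3, MC1, MC2 or LC2). POLA2, its partner in the priming complex (means of 2.73 FPKM in HC, 3.54 FPKM in MC and 2.42 FPKM in LC), rose in MC minus LC (0.41 ± 0.13 at adjusted p = 0.0318). The call was lost without LC3 or any MC library (adjusted p = 0.0595 to 0.108). The other primase subunit, PRIM2, held 2.58 to 3.01 FPKM in HC, 3.03 to 4.18 FPKM in MC and 2.66 to 3.97 FPKM in LC and passed in no comparison. POLA1, the catalytic polymerase subunit of the priming complex, held 4.702, 5.99 and 6.11 FPKM in HC, 5.11, 5.17 and 6.05 FPKM in MC and 6.35, 6.94 and 7.89 FPKM in LC. It was the one enzyme with its highest mean in LC, where no HC or MC library reached the lowest LC library, and its changes of -0.29 in HC minus LC and -0.32 in MC minus LC did not pass (adjusted p = 0.124 and 0.0812), although MC minus LC did with a term for replicate 1 of each diet (adjusted p = 0.0364). POLA1 shares its locus with LOC102187664.

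Of the 9 genes of clamp, loader, strand binding and joining 3 rose in HC minus LC, 7 rose in MC minus LC, and 2 were lower in HC than in MC. PCNA is the ring that holds polymerases on DNA and a common marker of proliferating cells. It held 22.1, 16.8 and 17.3 FPKM in HC, 38.9, 35.1 and 29.8 FPKM in MC and 9.89, 11.7 and 13.8 FPKM in LC. No diets overlapped, and the mean of MC was 2.93 times that of LC. PCNA changed by 0.63 ± 0.15 at adjusted p = 0.0133 in HC minus LC, 1.48 ± 0.15 at adjusted p = 4.92e-05 in MC minus LC and -0.85 ± 0.15 at adjusted p = 0.00335 in HC minus MC. The HC minus LC call was lost with replicates 2 and 3 only (adjusted p = 0.0609), with the basal covariate (adjusted p = 0.0764) and with the smooth muscle covariate (adjusted p = 0.0698). FEN1, the nuclease that trims Okazaki fragments, held 4.803, 5.76 and 6.68 FPKM in HC, 9.09, 8.66 and 10.9 FPKM in MC and 4.37, 5.62 and 6.22 FPKM in LC. MC alone stood apart (log2 change 0.73 ± 0.15 at adjusted p = 0.00369 in MC minus LC and -0.65 ± 0.15 at adjusted p = 0.011 in HC minus MC), and HC minus LC did not pass (0.08 ± 0.15 at adjusted p = 0.735). LIG1, the ligase that acts after FEN1, passed in no comparison, with 11.1 to 17.1 FPKM in HC, 14.5 to 18.4 FPKM in MC and 13.9 to 15.5 FPKM in LC.

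The clamp loader genes RFC2, RFC3 and RFC4 rose in MC minus LC, and RFC5 did not pass in any comparison. RFC2 held 5.78, 7.56 and 6.46 FPKM in HC, 7.698, 8.35 and 6.99 FPKM in MC and 4.46, 4.28 and 5.01 FPKM in LC. It rose in HC and in MC over LC (0.44 ± 0.12 at adjusted p = 0.0244 and 0.64 ± 0.12 at adjusted p = 0.00261), and the HC call was lost without HC2, HC3 or LC2 (adjusted p = 0.0689 to 0.0874). RFC3 held 9.56, 8.84 and 8.53 FPKM in HC, 13.7, 13.8 and 7.71 FPKM in MC and 5.67, 6.62 and 6.24 FPKM in LC. Here MC1 and MC2 stood above all other libraries and MC3 lay below every HC library (0.79 ± 0.18 at adjusted p = 0.00678 in MC minus LC). That call was lost with replicates 2 and 3 only (adjusted p = 0.0786) and with the basal covariate (adjusted p = 0.0602). RFC4 averaged 23.7 FPKM in HC, 27.1 FPKM in MC and 20.4 FPKM in LC and shares its locus with EIF4A2, so its level is uncertain. Its MC minus LC call (0.40 ± 0.12 at adjusted p = 0.0218) was lost without MC1 or MC2 (adjusted p = 0.0635 and 0.0805). RFC5 held 13.1 to 15.8 FPKM in HC, 14.5 to 17.6 FPKM in MC and 13.4 to 13.6 FPKM in LC. The strand binding protein genes RPA3 and RPA2 are parts of the complex that coats single strands. RPA3 held 31.01, 30.7 and 32.6 FPKM in HC, 28.5, 31.3 and 23.7 FPKM in MC and 17.1, 21.96 and 21.8 FPKM in LC. HC and MC overlapped and both exceeded LC (0.62 ± 0.14 at adjusted p = 0.00811 and 0.44 ± 0.14 at adjusted p = 0.031). The MC call was lost without MC1, MC2 or LC1 (adjusted p = 0.0721 to 0.125). RPA2 held 14.7, 15.1 and 15.9 FPKM in HC, 18.9, 20 and 18.4 FPKM in MC and 11.7, 14.2 and 14.4 FPKM in LC. It rose in MC minus LC (0.49 ± 0.11 at adjusted p = 0.00704).

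All 5 genes of nucleotide supply rose in MC minus LC, 3 rose in HC minus LC, and 1 was lower in HC than in MC. TYMS, thymidylate synthase, held 5.78, 3.73 and 5.24 FPKM in HC, 10.4, 9.31 and 8.38 FPKM in MC and 2.899, 3.001 and 2.498 FPKM in LC. The diets did not overlap (log2 change 0.62 ± 0.15 at adjusted p = 0.0107 in HC minus LC, 1.45 ± 0.15 at adjusted p = 4.22e-05 in MC minus LC and -0.82 ± 0.15 at adjusted p = 0.00319 in HC minus MC). The HC minus LC value was 0.325 with the basal marker mean as covariate (adjusted p = 0.132), and that call was also lost with equal summed FPKM (adjusted p = 0.0666). The HC minus MC call was lost with the smooth muscle covariate (adjusted p = 0.0928). TK1, the thymidine kinase of S phase, held 4.94, 3.77 and 6.37 FPKM in HC, 6.75, 6.21 and 5.74 FPKM in MC and 1.35, 2.45 and 1.86 FPKM in LC. HC3 lay within the range of MC, and no HC or MC library came down to the range of LC (1.06 ± 0.18 at adjusted p = 0.00169 in HC minus LC and 1.34 ± 0.18 at adjusted p = 0.000246 in MC minus LC). RRM2, the subunit that limits ribonucleotide reductase in dividing cells, held 4.72, 3.32 and 4.16 FPKM in HC, 7.97, 5.18 and 5.48 FPKM in MC and 1.71, 1.07 and 2.21 FPKM in LC. It changed by 0.94 ± 0.19 at adjusted p = 0.00519 in HC minus LC and 1.44 ± 0.19 at adjusted p = 0.000258 in MC minus LC. Its partner RRM1, whose protein is present throughout the cell cycle, held 11.6, 8.92 and 9.59 FPKM in HC, 14.2, 12.5 and 13.2 FPKM in MC and 7.74, 8.704 and 11.2 FPKM in LC. RRM1 overlapped between HC and LC and rose in MC minus LC (0.50 ± 0.14 at adjusted p = 0.0207), a call lost without MC1, LC1 or LC2 (adjusted p = 0.0589 to 0.0743). DUT, which keeps uracil out of DNA, held 29.7, 37.9 and 32.5 FPKM in HC, 43.9, 50.1 and 40.2 FPKM in MC and 22.5, 33.6 and 29.8 FPKM in LC. It rose in MC minus LC (0.64 ± 0.16 at adjusted p = 0.0108; adjusted p = 0.0504 without MC2).

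Of the 4 genes that restore chromatin behind the fork 2 rose in HC minus LC, 3 rose in MC minus LC, and 2 were lower in HC than in MC. Among them UHRF1 had the largest MC minus LC value of all 49 members on the scale of log2(FPKM + 1). By ratio of the MC mean to the LC mean POLE2 (9.78) and CCNE2 (4.59), both under 0.5 FPKM in LC, stood above UHRF1 (4.52). UHRF1 recognises hemimethylated DNA and recruits DNMT1 to it. It held 4.37, 4.94 and 6.13 FPKM in HC, 8.77, 7.47 and 9.97 FPKM in MC and 1.85, 1.99 and 1.96 FPKM in LC, without overlap between any diets. The log2 change was 1.06 ± 0.14 at adjusted p = 0.000372 in HC minus LC, 1.72 ± 0.14 at adjusted p = 9.72e-06 in MC minus LC and -0.67 ± 0.14 at adjusted p = 0.00657 in HC minus MC. With the smooth muscle covariate the HC minus MC value was -0.74 and did not pass (adjusted p = 0.0593). DNMT1 itself, the methyltransferase that copies methylation, held 4.46, 6.37 and 6.02 FPKM in HC, 6.19, 7.15 and 7.19 FPKM in MC and 6.904, 5.404 and 4.88 FPKM in LC. It overlapped in every pair of diets and passed in none. CHAF1B, a subunit of the histone chaperone of the fork, held 2.43, 2.47 and 2.68 FPKM in HC, 4.44, 3.802 and 4.804 FPKM in MC and 1.59, 1.403 and 1.38 FPKM in LC. It separated all diets (0.52 ± 0.12 at adjusted p = 0.0101 in HC minus LC, 1.12 ± 0.12 at adjusted p = 6.62e-05 in MC minus LC and -0.60 ± 0.12 at adjusted p = 0.00599 in HC minus MC). Its HC minus LC call was lost with equal summed FPKM (adjusted p = 0.0818) and its HC minus MC call with the smooth muscle covariate (adjusted p = 0.0963). The large subunit CHAF1A held 2.98, 4.27 and 4.83 FPKM in HC, 4.45, 4.699 and 5.49 FPKM in MC and 2.36, 3.3 and 3.48 FPKM in LC. It rose in MC minus LC (0.55 ± 0.17 at adjusted p = 0.0267; adjusted p = 0.0618 to 0.0911 without MC2, MC3 or LC1).

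Of the 6 control genes of the G1/S step 2 rose in HC minus LC, 4 rose and 1 fell in MC minus LC, and 1 was lower and 1 higher in HC minus MC. E2F1, the transcription factor that activates many of the genes above, held 3.73, 4.34 and 4.62 FPKM in HC, 5.01, 4.48 and 5.39 FPKM in MC and 1.96, 2.37 and 2.505 FPKM in LC. HC and MC overlapped and both exceeded LC (0.67 ± 0.13 at adjusted p = 0.00309 in HC minus LC and 0.86 ± 0.13 at adjusted p = 0.000444 in MC minus LC), and E2F1 shares its locus with NECAB3. CCNE1, a cyclin that drives entry into S phase, held 2.98, 2.96 and 1.93 FPKM in HC, 4.28, 3.02 and 3.52 FPKM in MC and 0.883, 0.946 and 0.81 FPKM in LC. No diets overlapped, and HC minus MC did not pass (0.93 ± 0.16 at adjusted p = 0.00163 in HC minus LC, 1.29 ± 0.16 at adjusted p = 0.000136 in MC minus LC and -0.35 ± 0.16 at adjusted p = 0.124 in HC minus MC). CCNE2, the second cyclin E gene, held 0.806, 0.262 and 0.251 FPKM in HC, 1.16, 0.866 and 0.757 FPKM in MC and 0.189, 0.294 and 0.122 FPKM in LC. HC1 stood with the MC libraries while HC2 and HC3 lay in the range of LC, and the gene passed in MC minus LC only (0.68 ± 0.17 at adjusted p = 0.00872). CCNE2 shares its locus with INTS8.

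CCND1, the cyclin that relays growth signals in G1, had its lowest mean in HC. It held 4.96, 5.79 and 4.999 FPKM in HC, 11.8, 10.8 and 9.23 FPKM in MC and 9.44, 6.67 and 5.41 FPKM in LC. HC was lowest, its libraries lay within or below those of LC, and LC itself was spread widely. CCND1 was lower in HC than in MC (-0.89 ± 0.17 at adjusted p = 0.00408), but not with the smooth muscle covariate (log2 change -0.436, adjusted p = 0.203). It did not pass in HC minus LC (-0.36 ± 0.17 at adjusted p = 0.138), although it did without LC3 (adjusted p = 0.0417). Its rise in MC minus LC (0.53 ± 0.17 at adjusted p = 0.0319) was lost without MC1, MC2, LC2 or LC3 (adjusted p = 0.0878 to 0.119).

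Both inhibitors were among the more abundant members, and they differed from each other. CDKN1B, which blocks cyclin E and cyclin D kinases in resting cells, held 32.2, 31.2 and 33.8 FPKM in HC, 23.3, 22.3 and 22.3 FPKM in MC and 37.9, 31.7 and 36.6 FPKM in LC. MC stood below all other libraries and within 22.3 to 23.3 FPKM, and HC and LC overlapped. CDKN1B fell in MC minus LC (-0.62 ± 0.11 at adjusted p = 0.00177) and was higher in HC than in MC (0.50 ± 0.11 at adjusted p = 0.00974), while HC minus LC did not pass (-0.12 ± 0.11 at adjusted p = 0.462). The HC minus MC call was lost on a scale with equal summed FPKM (adjusted p = 0.127) and with the smooth muscle mean as covariate (adjusted p = 0.132). CDKN1A, the inhibitor induced by p53 and by differentiation, had the highest level of all members and held 128, 127 and 129 FPKM in HC, 139.8, 128 and 169 FPKM in MC and 114, 140.4 and 145 FPKM in LC. Its diets overlapped throughout, and it passed in none (adjusted p = 0.839 in HC minus LC, 0.553 in MC minus LC and 0.416 in HC minus MC).

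Levels of the members spanned a wide range on the FPKM scale, which is per length. The median of their means over the 9 libraries was 5.69 FPKM, against 7.58 FPKM for all genes tested. CDKN1A (135.5 FPKM, above 94.6% of genes tested), DUT (35.6 FPKM), CDKN1B (30.1 FPKM), MCM7 (28.6 FPKM), RPA3 (26.5 FPKM), RFC4 (23.7 FPKM) and PCNA (21.7 FPKM) stood highest. GINS3 (0.464 FPKM, above 1.8%), CCNE2 (0.522 FPKM), POLE (0.65 FPKM), CDC45 (0.694 FPKM) and CDC6 (0.723 FPKM) stood lowest. The RefSeq table of assembly ARS1.2 places 47 members on 21 chromosomes, 7 of them (GINS2, GINS3, ORC6, CDT1, POLD1, LIG1 and CCNE1) on chromosome 18, and MCM2 and CDC45 unplaced.

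Genes of the same pathways outside the list were counted for comparison. Of 39 other replication factors 35 were tested; 4 rose and 3 fell in HC minus LC, 17 rose and 1 fell in MC minus LC, and 15 were lower and 0 higher in HC minus MC. These were 20%, 51.4% and 42.9% of the list, against 25.2%, 32.3% and 23% of all genes tested in the same comparisons. Their median log2 changes were 0.009, 0.342 and -0.365 in that order. DTL and RECQL4, counted as rises in HC minus LC and in MC minus LC, reached 0.5 FPKM in no LC library. CLSPN, counted in MC minus LC and in HC minus MC, reached it in the MC libraries and HC3 alone. The calls of these genes follow in part from the rule and lend the counts no support. The same limit holds in the lists below for any gene that met the rule without LC libraries. POLD4, the smallest subunit of the lagging strand polymerase, averaged 125 ± 9.52 FPKM in HC, 147 ± 19.1 FPKM in MC and 51.7 ± 14.1 FPKM in LC (SD, n = 3 each) and rose in both HC and MC over LC. RNASEH2C, part of the nuclease that removes ribonucleotides from DNA, did likewise (41.1 ± 3.49 FPKM in HC, 43.2 ± 2.77 FPKM in MC and 21.6 ± 2.86 FPKM in LC). TIPIN, which protects stalled forks, and MCMBP, which binds MCM proteins, were highest in MC: TIPIN averaged 3.496 FPKM in HC, 8.89 FPKM in MC and 4.75 FPKM in LC, and MCMBP averaged 7.36 FPKM in HC, 14.5 FPKM in MC and 7.48 FPKM in LC. TIPIN fell in HC minus LC (log2 change -0.36, adjusted p = 0.0467), while MCMBP did not pass there (adjusted p = 0.933).

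Of 26 other genes of nucleotide supply 23 were tested, and 0 rose and 1 fell in HC minus LC, against 10 that rose and 3 that fell in MC minus LC. In HC minus MC 8 were lower and 2 higher. The shares were 4.35%, 56.5% and 43.5% in HC minus LC, MC minus LC and HC minus MC, beside the 25.2%, 32.3% and 23% of all genes. CTPS1, which makes CTP, averaged 2.29 ± 0.539 FPKM in HC, 7.31 ± 0.937 FPKM in MC and 1.85 ± 0.375 FPKM in LC. UMPS, which completes UMP, averaged 19.8 ± 0.8898 FPKM in HC, 42.3 ± 2.52 FPKM in MC and 15.8 ± 1.67 FPKM in LC. Both were higher in MC than in the other diets and did not pass in HC minus LC. GMPS, which makes GMP (8.62 FPKM in HC, 13.7 FPKM in MC and 7.15 FPKM in LC), was also highest in MC. SAMHD1, which degrades deoxynucleotides, was the 1 that fell in HC minus LC and fell in MC minus LC as well (1.19 ± 0.0842 FPKM in HC, 1.01 ± 0.0755 FPKM in MC and 2.48 ± 0.309 FPKM in LC). The members TYMS, TK1 and RRM2 rose in HC minus LC and none of these 23 genes did, where 7.38% of all genes rose. Whether these genes differed from the members was not tested.

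Of 36 other genes of G1 and S control 32 were tested; 4 rose and 1 fell in HC minus LC, 18 rose and 1 fell in MC minus LC, and 9 were lower and 0 higher in HC minus MC. The shares were 15.6%, 59.4% and 28.1%, against 25.2%, 32.3% and 23% of all genes tested. CKS2, a kinase subunit, averaged 16.8 ± 2.82 FPKM in HC, 18.6 ± 2.899 FPKM in MC and 5.96 ± 1.87 FPKM in LC and rose in HC and in MC over LC. MYBL2, an E2F target that activates later cell cycle genes, averaged 2.22 FPKM in HC, 3.79 FPKM in MC and 1.33 FPKM in LC and passed in every comparison. E2F4, a repressor E2F, and CDC25A, a phosphatase that activates cyclin kinases, were higher in MC than in both other diets. E2F4 averaged 11.04 FPKM in HC, 16.5 FPKM in MC and 8.74 FPKM in LC, and CDC25A averaged 1.11 FPKM in HC, 2.201 FPKM in MC and 0.675 FPKM in LC.

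Genes of mitosis and G2/M, which act after replication is complete, passed the test in 45% of cases in HC minus LC and 75% in MC minus LC, against 44.9% and 75.5% of the members and 25.2% and 32.3% of all genes. In HC minus MC 25% passed, against 23% of all genes. Of 44 such genes 40 were tested; 16 rose and 2 fell in HC minus LC, 29 rose and 1 fell in MC minus LC, and 10 were lower and 0 higher in HC minus MC, with median log2 changes of 0.434, 0.669 and -0.259. CCNB1, the mitotic cyclin, averaged 4.35 ± 0.305 FPKM in HC, 7.39 ± 0.349 FPKM in MC and 2.61 ± 0.355 FPKM in LC and passed in every comparison. ANLN, a protein of the dividing furrow, and CDC20, which triggers anaphase, rose in HC and in MC over LC and did not pass in HC minus MC. ANLN averaged 4.57 FPKM in HC, 4.75 FPKM in MC and 1.57 FPKM in LC, and CDC20 averaged 4.53 FPKM in HC, 4.77 FPKM in MC and 1.94 FPKM in LC. TPX2, a spindle factor, averaged 4.07 FPKM in HC, 6.14 FPKM in MC and 2.62 FPKM in LC. Whether replication and mitosis genes differed in their changes was not tested.

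Of 20 p53 target genes 18 were tested, and they went both ways: 4 rose and 3 fell in HC minus LC, 2 rose and 6 fell in MC minus LC, and 6 were higher and 2 lower in HC minus MC. These were 38.9%, 44.4% and 44.4% of the list, against 25.2%, 32.3% and 23% of all genes tested. TIGAR, a regulator of sugar phosphate levels, averaged 5.89 ± 0.913 FPKM in HC, 16.01 ± 2.11 FPKM in MC and 3.46 ± 0.443 FPKM in LC. The nuclease gene AEN (2.08 FPKM in HC, 7.396 FPKM in MC and 1.85 FPKM in LC) was also highest in MC, and the death factor gene BBC3 (7.68 FPKM in HC, 1.64 FPKM in MC and 6.12 FPKM in LC) was lowest there. TP53INP1 averaged 1.56 FPKM in HC, 2.001 FPKM in MC and 3.72 FPKM in LC and fell in HC and in MC relative to LC.

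**Figure D4:**
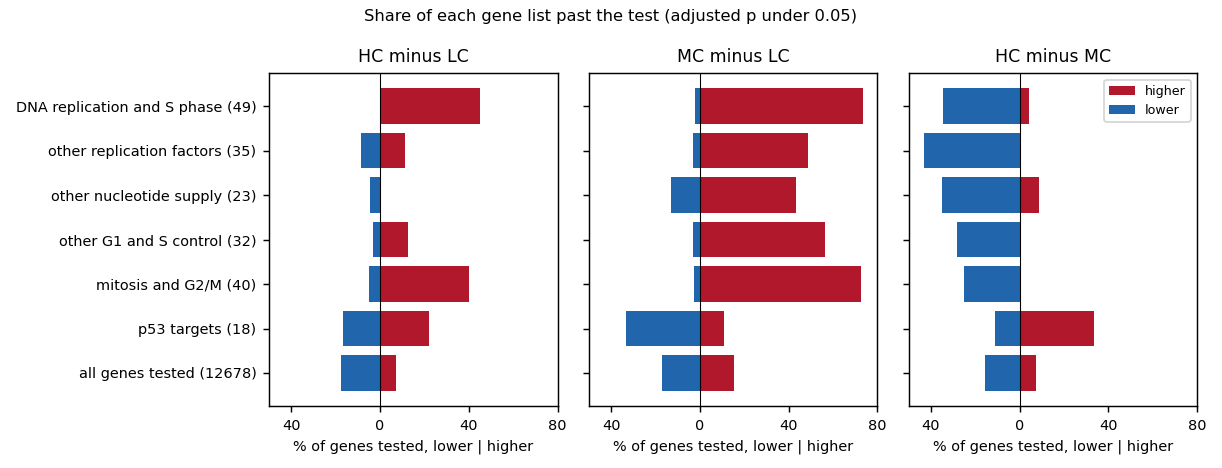
Percentage of tested genes past limma's test, higher to the right in red and lower to the left in blue, in each gene list (number tested in brackets) and in all 12678 genes tested, for HC minus LC, MC minus LC and HC minus MC. Replication and S phase genes have 22 of 49 higher and 0 lower in HC minus LC, and the mitosis list has 16 of 40 higher and 2 lower. Nucleotide supply genes outside the members have 0 of 23 higher there, against 7.38% of all genes.

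Muscle RNA moved with part of these comparisons. Every HC library held less smooth muscle RNA than any MC library (123.5 to 159.7 FPKM in HC and 1277 to 3949 FPKM in MC), and in HC minus MC 17 members were lower in HC. With the mean of the smooth muscle markers as a covariate 4 members passed in HC minus MC, all lower in HC, of which GINS2, PCNA and FEN1 were among the 19 and RRM1 was not. The other 16 calls were lost, at adjusted p = 0.0541 (MCM4) to 0.442 (POLD2). Over all genes there were 1030 calls with the covariate, against 2917 without, and the members' median was -0.34, against -0.31 without. Muscle RNA separated HC from MC without overlap, so the covariate cannot tell muscle RNA from diet in this comparison. A call lost with it does not assign the difference to muscle. The count in HC minus MC also fell to 11 or 12 without HC2, HC3, MC1 or MC2, each left out in turn, and to 12 with median-of-ratios scaling. In HC minus LC that covariate left 17 of 22 calls, and in MC minus LC 35 of 37. The mean of the basal markers as covariate left 18 and 31 of these calls. Within LC the sum of the 43 genes was 283.5 FPKM in LC3, 280.4 FPKM in LC2 and 241.5 FPKM in LC1, which held 65.6, 1390 and 2614 FPKM of muscle markers in that order. The summed FPKM of all genes was also lowest in LC1, at 755624, against 1024096 in LC2 and 1030724 in LC3. The lower sum in LC1 therefore cannot be set against its muscle RNA alone. Within MC the sum was 451 FPKM in MC3, 467.4 FPKM in MC1 and 464.9 FPKM in MC2, which held 1277, 2825 and 3949 FPKM. With LC3 alone standing for LC, an alternative chosen after seeing the data that assumes this library varies like the others, 9 of 22 calls remained in HC minus LC (MCM2, MCM4, MCM5, MCM6, GINS1, CDT1, TK1, UHRF1 and CCNE1), with a member median of 0.33. In MC minus LC 26 of 37 remained, with a median of 0.635. With replicates 2 and 3 only, also chosen after seeing the data, 19 members passed in HC minus LC, 32 in MC minus LC and 16 in HC minus MC. Of all 12678 genes 2939, 3753 and 3337 passed with these replicates, against 3191, 4098 and 2917 with all libraries. Summed immune markers were lower in HC and in MC than in LC, as given above, and the part of immune cell RNA in the differences from LC was not tested.

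**Figure D5:**
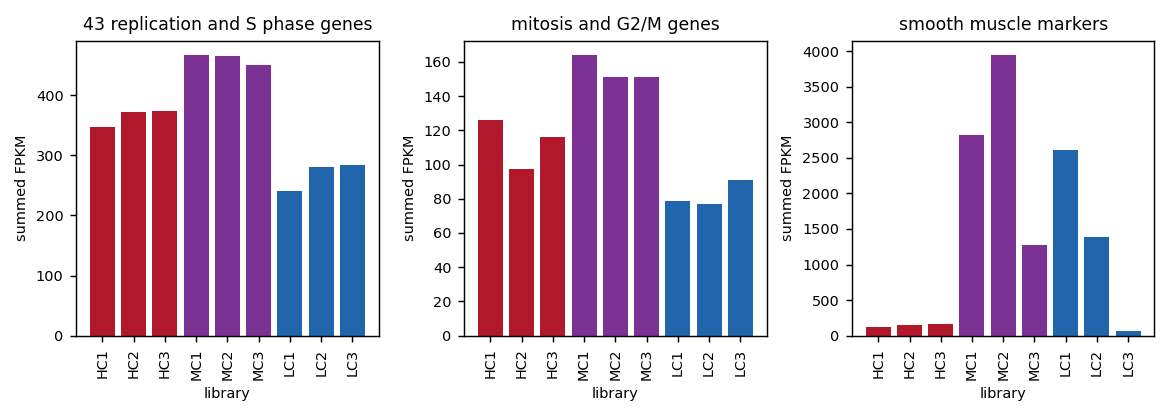
Summed FPKM per library of the 43 members outside G1/S control (left), of the mitosis and G2/M genes (middle) and of the 12 smooth muscle markers (right), with HC in red, MC in purple and LC in blue and each axis starting at 0. The left panel steps down in the order MC, HC and LC with no overlap, and the right panel is low in HC and LC3 and at 1277 FPKM or more in the other 5 libraries.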

How the data were processed

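RNA from frozen rumen epithelium was made into TruSeq libraries, per the labels' protocols, and the submitters' processing notes name Bowtie 1.2.0 and Cufflinks 2.2.1. The authors deposited 1 list of gene symbols and FPKM values per library; the unit was read from Cufflinks and from the values, and no source used here names the genome build, annotation or strand setting. Each library listed 15123 to 16696 genes, and the summed FPKM was 755624 in LC1 and 903006 to 1051183 in the others. Lines of repeated symbols (CD81, TPT1) were summed, and blank lines and symbols turned into dates were left out. Blank lines stood in the HC files (11468 to 12038) and not in MC or LC files, and date names in MC and LC files (18 to 21) and not in HC files, so a difference in how these files were made cannot be told apart from diet in comparisons with HC. Read counts and depth are unknown. Values under 0.1 FPKM fell on shared whole-read steps in pairs without a replicate 1 library (24.4 to 29.7% of genes within 0.04 log2 of the modal ratio, 15 pairs) and less so in pairs with one (3.3 to 10.8%, 21 pairs); on these steps the other libraries had 1.19 (LC3) to 1.5 (MC3) times the depth of HC2.

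Genes with at least 0.5 FPKM in 3 or more files and listed in all 9 were tested (12678), on log2(FPKM + 1) with limma 3.58.1 in R 4.3.3, using trend and robust moderation, 1 mean per diet, two-sided tests and Benjamini-Hochberg adjustment over all genes tested, at 0.05. Residual degrees of freedom were 6 and the median prior was 5.58. Every adjusted p in the text comes from this fit or an alternative to it. On simulated data with no change the fit made 0 calls. In HC minus LC and HC minus MC it recovered 72% and 76% of 200 genes changed by a log2 value of 1 and 0% of those changed by 0.5. False calls in these comparisons were 8 and 5 at a log2 value of 1, and 5 and 19 at a value of 2. Genes and libraries were drawn independently, without the deviations that the replicate 1 libraries shared. The data had 2917 to 4098 calls per comparison, so the adjustment was stricter in the simulation than in the data. Its shares do not give the power of the tests here, where POLE passed at 0.38 in MC minus LC. Members given by library were those past the test in any comparison, up to 6 a role by F test, and all 6 control genes; of each other list up to 4 genes by F test were named, and any other gene with values was chosen after they were seen. The members and lists were chosen with earlier results of these data known. All 49 members were found in the RefSeq table of assembly ARS1.2, as were 16473 of 18383 genes (89.6%). Promoter and protein sequences were not analysed here. The 27 alternatives, 3 of them added after seeing the data, covered scaling, pseudocount, filters, moderation, covariates, the replicate block and each library left out.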

Additional observations from a re-analysis of the deposited data

How the results depend on the processing

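The count of members past limma's test was most stable in MC minus LC (37 as reported, 30 to 37 with each library left out, 26 with LC3 alone for LC). In HC minus LC it was 22 as reported, 18 to 23 with each library left out and 9 with LC3 alone; over all genes LC3 alone left 1465 calls, leaving out HC3 1881, and library quality weights 6237, against 3191. In HC minus MC it was 19 as reported, 11 to 23 with each library left out, 12 with median-of-ratios scaling, 31 with library quality weights and 4 with the smooth muscle covariate, and the calls over all genes were 6868 with the weights, 1030 with the covariate and 1586 to 4211 with each library left out, against 2917. Calls that held with each library left out were 17 of 22, 29 of 37 and 9 of 19 in HC minus LC, MC minus LC and HC minus MC, and those that held under every alternative run were 8, 24 and 3, the last being GINS2, PCNA and FEN1. Members past the F test numbered 38, and 30 to 38 with each library left out. Over all alternatives 26 of 147 member values (49 members in 3 comparisons) took both signs, 0 of them values that passed the test. Among control genes these were CDKN1B in HC minus LC (0.0245 with median-of-ratios scaling, 0.0092 with the weights), CCNE2 in HC minus LC (-0.0087 with the basal marker covariate), CDKN1A in HC minus LC (0.10 with median-of-ratios scaling, 0.13 with the basal covariate, and -0.155 to 0.0167 with each library left out, the highest without LC3) and CDKN1A in MC minus LC (-0.0166 with the weights, -0.00032 with LC3 alone); the cause was not tested. With a replicate block the counts were 23, 39 and 23, and 39 in the F test, where 4019, 4813, 3934 and 6768 of all genes passed. POLA1 in MC minus LC passed with the block (adjusted p = 0.0372). The numbers were not taken as pairs, since only 6 of 9 same-number pairs correlated over 0.1 in their deviations from the diet means (-0.0779 to 0.505), and 3 of 9 libraries correlated best with their own number; these 3 were the replicate 1 libraries, which correlated at 0.291 to 0.435 with each other. A term for replicate 1 of each diet gave 22, 39 and 23, where 4135, 4909 and 4024 of all genes passed. A member that did not pass is not shown to be equal between diets.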
